A study of Mus musculus with 24 samples.

Results

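Pericentral Wnt zonation genes are transcripts that hepatocytes around the central vein hold at high level under Wnt signalling. The set described here was defined by a list of gene names and holds the probe sets whose RefSeq accession maps to Glul, Oat, Slc1a2, Rgn, Lect2, Axin2, Rnf43, Znrf3, Lgr5 or Tbx3. Of these 10 genes 9 were measured, on 10 of the 26180 probe sets, and they were tested among 14351 named genes. Tbx3 had 2 probe sets, and no probe set matched Znrf3.

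Liver RNA from the median and left lobes was hybridised to 24 Affymetrix 3' expression arrays, 12 from young mice of 4 to 5 weeks and 12 from adult mice of 12 to 14 months. At each age 3 mice had a sham operation and 3 mice each underwent 30, 60 or 90 min of partial hepatic ischemia, the clamping of blood flow to a portion of the organ. The labels give no strain, sex or genotype. The titles write each ischemia time with a second figure, 0, whose meaning the labels do not state. The study asked how the genomic response runs over the time of ischemia at the 2 ages.

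Each deposited value is a ratio whose denominator is the sham mean of its own age (3 arrays). A ratio of 1 is therefore that mean, adult and young sham livers cannot be set against each other, and the level of 1 gene cannot be compared with that of another. The ratios keep no array brightness, so their precision is limited by the 3 arrays a group. Over all probe sets the extremes were 0.0255 and 16.9, and array medians spanned 0.955 to 1.02. Because the values hold no levels, the presence of hepatocyte markers could not be checked. In whole liver tissue, fewer pericentral hepatocytes and less RNA per cell cannot be told apart.

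Along the blood path from portal to central vein hepatocytes divide their work, and Wnt ligands and R-spondins from the endothelium of the central vein keep the last layers in the pericentral state through beta-catenin. In those layers, glutamine synthesis takes up the ammonia that the periportal urea cycle has left. Several targets of the pathway act back on it, some as brakes and some as amplifiers. For reading, the 9 measured genes are called 5 effector genes (Glul, Oat, Slc1a2, Rgn and Lect2) and 4 pathway genes (Axin2, Rnf43 and Lgr5, with the transcription factor Tbx3). Targets of beta-catenin are in both groups. The split was not part of the planned comparisons and was made with the values known. The 5 effector genes are also the 5 that were lower in the fit. A difference between the 5 and the 4 was not tested.

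Promoter sequence is shown for the 4 effector genes with a supplied window, to set the DNA before their start sites beside the expression values. No window was supplied for Rgn. The supplied RefSeq table (build GRCm38.p6) held windows for 6 of the 10 genes, and each run below is the 250 bases before the start, 5' to 3' on the strand of the gene. Glul lies at chr1:153899679-153899928 on the plus strand, Oat at chr7:132576399-132576648 on the minus strand, Slc1a2 at chr2:102706188-102706437 on the plus strand and Lect2 at chr13:56548539-56548788 on the minus strand. Capitals mark a TCF/LEF word, the motif of the factors that carry beta-catenin to DNA, searched on both strands as ATCAAAG and as the 3 words that open with AA, TA or TT in place of its first AT.
Glul: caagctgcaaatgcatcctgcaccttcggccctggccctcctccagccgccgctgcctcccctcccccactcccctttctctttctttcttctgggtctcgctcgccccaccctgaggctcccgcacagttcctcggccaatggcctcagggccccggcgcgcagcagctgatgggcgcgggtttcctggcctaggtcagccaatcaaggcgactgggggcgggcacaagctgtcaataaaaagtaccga
Oat: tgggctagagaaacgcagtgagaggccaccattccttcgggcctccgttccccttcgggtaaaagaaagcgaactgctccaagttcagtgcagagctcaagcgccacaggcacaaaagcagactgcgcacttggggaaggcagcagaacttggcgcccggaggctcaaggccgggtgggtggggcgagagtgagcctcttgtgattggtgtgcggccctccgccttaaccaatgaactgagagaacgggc
Slc1a2: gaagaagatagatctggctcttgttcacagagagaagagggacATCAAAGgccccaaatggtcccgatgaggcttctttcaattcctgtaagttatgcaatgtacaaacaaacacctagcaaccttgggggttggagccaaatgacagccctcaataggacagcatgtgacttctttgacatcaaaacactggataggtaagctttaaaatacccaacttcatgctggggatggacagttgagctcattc
Lect2: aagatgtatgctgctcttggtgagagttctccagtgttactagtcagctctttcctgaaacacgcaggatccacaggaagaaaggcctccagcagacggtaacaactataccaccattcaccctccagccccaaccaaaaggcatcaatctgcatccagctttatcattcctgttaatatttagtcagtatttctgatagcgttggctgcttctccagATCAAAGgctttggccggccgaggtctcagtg
Slc1a2 held ATCAAAG 207 bases before its start and Lect2 held it 32 bases before its start, whereas the windows of Glul and Oat held none of the 4 words. Together with Axin2 and the 2 windows of Rnf43, 2 of 7 windows held a word, against 14.8% of the 32851 windows in the table. The core of the hypoxia response element, ACGTG, was in 0 of the 7 windows and in 16.6% of all windows. A match describes letters in this stretch only.

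After ischemia 4 of the 5 effector genes fell and 3 of the 4 pathway genes rose. Because the groups were named with the values known, this contrast is a description and not a test. In the mean of all ischemia groups against sham over both ages, Oat, Glul, Slc1a2 and Lect2 fell, while Tbx3, Rnf43 and Axin2 rose. Rgn changed by -0.17 ± 0.08 (SE, log2 scale) and Lgr5 by 0.17 ± 0.12, and neither passed (adjusted p = 0.141 and 0.343). So 7 of 9 genes passed at an adjusted p under 0.05 in limma, 3 up and 4 down, where 14.9% of all genes passed, 2.71% up and 12.2% down. Among all genes 389 passed up and 1744 down, which became 678 and 1244 with each array centred on its median. With quantile normalization of the log2 ratios all 7 calls were lost, so that 0 of the 9 genes passed, and 120 of all genes did. Each age's ischemia groups share their 3 sham arrays, so the contrasts against sham are not independent of one another.

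Glul encodes glutamine synthetase, the enzyme that joins ammonia to glutamate in the last hepatocyte layers. In young mice its ratios were 0.987, 1.02 and 0.989 in sham, 0.846, 1.05 and 0.74 at 30 min, 0.725, 1.09 and 0.829 at 60 min, and 0.894, 0.855 and 0.717 at 90 min. In adult mice they were 0.813, 1 and 1.18 in sham, 0.704, 0.866 and 1.15 at 30 min, 0.678, 0.614 and 0.515 at 60 min, and 0.665, 0.732 and 0.636 at 90 min. All 6 adult arrays at 60 and 90 min were below all 3 adult sham arrays, as were the 3 young arrays at 90 min against young sham, while the other groups overlapped with their sham. The adult change at 60 min was -0.72 ± 0.18 (adjusted p = 0.0298), that at 90 min was -0.55 ± 0.18 (adjusted p = 0.061), and the mean over both ages was -0.35 ± 0.10 (adjusted p = 0.0283).

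Oat encodes ornithine aminotransferase, a mitochondrial enzyme that turns ornithine toward glutamate in the same layers. In young mice its ratios were 0.943, 0.969 and 1.09 in sham, 0.848, 0.908 and 0.684 at 30 min, 0.76, 1.07 and 0.905 at 60 min, and 0.75, 0.847 and 0.71 at 90 min. In adult mice they were 0.839, 0.971 and 1.19 in sham, 0.707, 0.773 and 1.05 at 30 min, 0.584, 0.612 and 0.424 at 60 min, and 0.64, 0.586 and 0.548 at 90 min. Both late adult groups lay wholly below adult sham, and the young groups at 30 and 90 min lay wholly below young sham. Oat had the largest adult fall of the 9 genes at 60 min, -0.89 ± 0.17 (adjusted p = 0.0266), and also fell at 90 min, by 0.75 ± 0.17 on the log2 scale (adjusted p = 0.0211). Its mean change over both ages was -0.45 ± 0.10 (adjusted p = 0.00838), and of the 7 genes that passed it alone did so in all 24 fits that dropped 1 array, between -0.51 and -0.39.

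Slc1a2 encodes a glutamate transporter of the plasma membrane, which brings in the substrate of glutamine synthetase. Among young arrays the ratios were 1.03, 0.96 and 1.01 in sham, 0.972, 0.932 and 0.914 at 30 min, 0.876, 0.933 and 0.971 at 60 min, and 0.704, 0.768 and 0.779 at 90 min. Among adult arrays they were 0.722, 1.01 and 1.26 in sham, 0.83, 0.888 and 1.17 at 30 min, 0.693, 0.661 and 0.752 at 60 min, and 0.522, 0.535 and 0.729 at 90 min. The lowest values were at 90 min in both ages. In young mice these 3 arrays were below all others of that age, and in adult mice the wide sham group overlapped with each ischemia group. The adult change was -0.73 ± 0.16 at 90 min (adjusted p = 0.0194) and -0.47 ± 0.16 at 60 min (adjusted p = 0.052), and the young change at 90 min was -0.42 ± 0.16 (adjusted p = 0.368). The mean over both ages was -0.31 ± 0.09 (adjusted p = 0.03).

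Lect2 encodes a protein that hepatocytes secrete into the blood, and it is known as a target of beta-catenin in liver. Adult ratios were 0.831, 1.2 and 0.965 in sham, 0.84, 0.99 and 1.31 at 30 min, 0.54, 0.6 and 0.56 at 60 min, and 0.797, 0.733 and 0.578 at 90 min. Young ratios were 0.815, 0.954 and 1.23 in sham, and they lay between 0.818 and 0.913 at 30 min, 0.887 and 0.979 at 60 min, and 0.771 and 0.899 at 90 min, so that every young group overlapped with sham. Both late adult groups were wholly below adult sham. Lect2 changed by -0.80 ± 0.16 at 60 min in adults (adjusted p = 0.0266), by -0.50 ± 0.16 at 90 min (adjusted p = 0.0599), and by -0.30 ± 0.09 over both ages (adjusted p = 0.0371).

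Rgn encodes regucalcin, a calcium-binding lactonase of the pathway to ascorbate. The adult arrays gave 0.977, 0.997 and 1.03 in sham, 0.832, 0.837 and 1.11 at 30 min, 0.815, 0.764 and 0.575 at 60 min, and 0.951, 0.946 and 0.757 at 90 min. The young arrays gave 0.918, 0.951 and 1.13 in sham, between 0.864 and 0.956 at 30 min, 0.873 and 1.02 at 60 min, and 0.879 and 1.09 at 90 min. Both late adult groups were below the narrow adult sham group, and all young groups overlapped with theirs. Rgn fell in adults at 60 min (-0.49 ± 0.14, adjusted p = 0.0341) and passed in no other comparison. Its adult change at 90 min was -0.18 ± 0.14 (adjusted p = 0.373).

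Tbx3 encodes a T-box transcription factor of pericentral hepatocytes that responds to beta-catenin. In young mice its ratios were 1.16, 1.01 and 0.827 in sham, 1.7, 1.1 and 1.59 at 30 min, 1.56, 2.5 and 2.01 at 60 min, and 1.49, 1.74 and 2.09 at 90 min. In adult mice they were 0.769, 1.23 and 0.998 in sham, 1.36, 1.37 and 1.26 at 30 min, 1.4, 1.28 and 3.2 at 60 min, and 1.38, 1.37 and 2.87 at 90 min. Of the 18 ischemia arrays, 17 were above every sham array of their age, the exception being young replicate 2 at 30 min, at 1.1. The rise over both ages was 0.75 ± 0.18 (adjusted p = 0.0122), with similar values in young mice, 0.79 ± 0.25 (adjusted p = 0.184), and adult mice, 0.71 ± 0.25 (adjusted p = 0.0611), neither of which passed alone. A single array carried much of the late adult value: the change at 60 min was 0.86 ± 0.30 with all arrays and 0.45 without adult replicate 3, and that at 90 min was 0.84 ± 0.30 and 0.49 without adult replicate 3 of that group. The second Tbx3 probe set gave nearly the same ratios, so the 2 are not separate evidence.

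Rnf43 encodes a membrane ubiquitin ligase that removes Frizzled receptors from the cell surface and so damps Wnt signalling. Among young arrays the ratios were 1.11, 1.21 and 0.687 in sham, 1.65, 1.22 and 1.49 at 30 min, 1.41, 1.93 and 1.41 at 60 min, and 1.3, 1.42 and 1.45 at 90 min. Among adult arrays they were 0.899, 1.39 and 0.71 in sham, 1.19, 1.28 and 1.37 at 30 min, 1.48, 1.51 and 1.29 at 60 min, and 1.07, 1.27 and 2.2 at 90 min. All 9 young ischemia arrays were above the 3 young sham arrays, whereas each adult group overlapped with adult sham, whose replicate 2 was at 1.39. The change was 0.56 ± 0.14 over both ages (adjusted p = 0.0169), 0.59 ± 0.20 in young mice (adjusted p = 0.233) and 0.52 ± 0.20 in adult mice (adjusted p = 0.0802).

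Axin2 encodes a scaffold of the complex that marks beta-catenin for destruction and is the usual readout of Wnt signalling. Young ratios were 1.08, 1.01 and 0.917 in sham, 1.23, 1.16 and 1.35 at 30 min, 1.08, 1.25 and 1.14 at 60 min, and 1.06, 0.906 and 1.18 at 90 min. Adult ratios were 0.917, 1.16 and 0.919 in sham, 1.16, 1.14 and 1.02 at 30 min, 1.24, 1.16 and 1.22 at 60 min, and 1.03, 1.16 and 1.28 at 90 min. The young groups at 30 and 60 min were higher than their sham without overlap, by less than rounding at 60 min, and all other groups overlapped. The rise over both ages was small, 0.21 ± 0.06 (adjusted p = 0.0384), and its within-group SD, 0.14 on the log2 scale, was the smallest of the 9 genes.

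Lgr5 encodes a receptor for R-spondins, which shield Frizzled receptors from Rnf43. The young arrays gave 0.943, 0.985 and 1.07 in sham, 1.11, 1.28 and 1.43 at 30 min, 0.725, 0.926 and 1.34 at 60 min, and 1.09, 1.03 and 1.4 at 90 min. The adult arrays gave 0.852, 1.42 and 0.73 in sham, 1.13, 1.1 and 1.14 at 30 min, 0.821, 1.14 and 0.85 at 60 min, and 1.21, 1.09 and 1.24 at 90 min. The young group at 30 min stood above its sham and all others overlapped, and Lgr5 passed in no comparison. Its changes from sham lay between -0.05 and 0.34, with a standard error of 0.21 at each time.

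**Figure D1:**
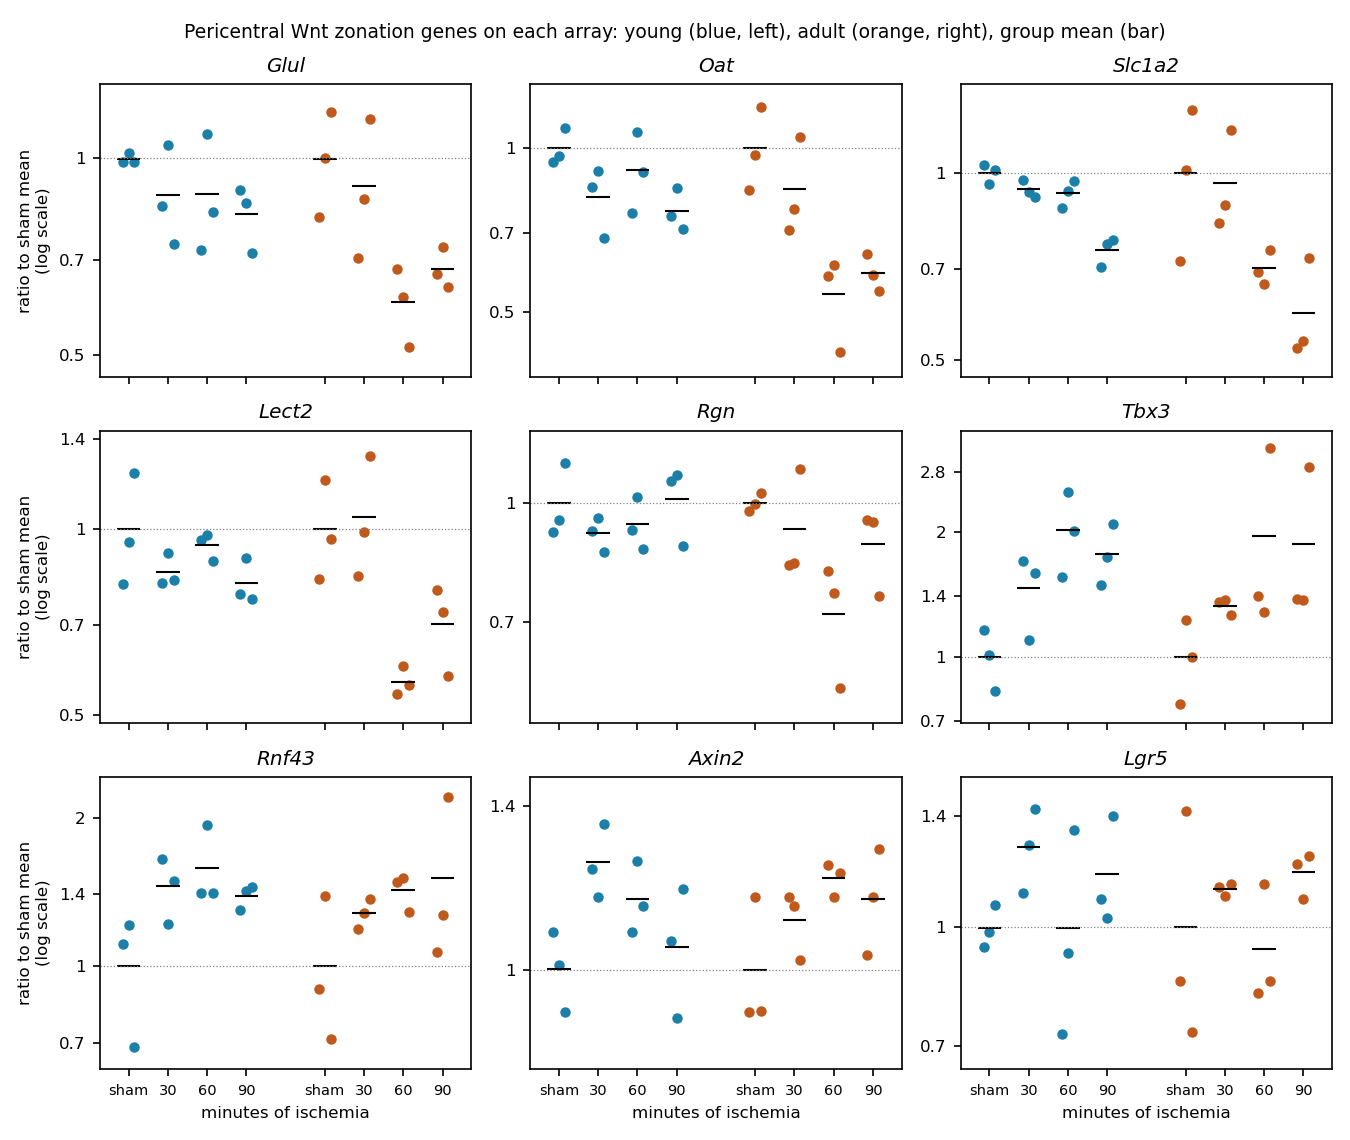
Ratio to the sham mean of the same age (log axis) of the 9 genes against minutes of ischemia, with 1 point per array, young groups on the left of each panel, adult groups on the right and bars at the group means (n = 3). The late adult points of Glul and Oat lie below adult sham, while the 9 young ischemia points of Rnf43 lie above young sham.

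The ages and times were then read one at a time. In young mice 0 of the 9 genes passed at any time, where 0.0557%, 0.0279% and 0.181% of all genes passed at 30, 60 and 90 min. Young arrays at 30 min did not overlap with sham for 4 of the 9 genes, with Axin2, Rnf43 and Lgr5 higher and Oat lower, against 14.8% of all genes. At 60 min this held for 3 genes, Tbx3, Rnf43 and Axin2, all higher (13.3% of all genes). At 90 min it held for 5 genes, Tbx3 and Rnf43 higher and Glul, Oat and Slc1a2 lower (13.9% of all genes). The largest young changes were those of Tbx3, 1.01 ± 0.30 at 60 min (adjusted p = 0.258) and 0.83 ± 0.30 at 90 min (adjusted p = 0.354), and of Rnf43 at 60 min, 0.69 ± 0.24 (adjusted p = 0.371). In the mean of the young ischemia groups 0 of 9 passed, beside 0.404% of all genes.

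In adult mice at 30 min 0 of the 9 genes passed in limma, as did 0 of all 14351 genes, of which 1486 (10.4%) had an unadjusted p under 0.05. Only Tbx3 did not overlap with sham, at 0.43 ± 0.30 (adjusted p = 0.578), beside 11.5% of all genes. The effector genes on adult replicate 3 at 30 min were all above 1, from 1.05 for Oat to 1.31 for Lect2, and on its other 2 arrays all 10 values were below 1. At 60 min 4 of the 9 genes passed, all of them effector genes and all lower (Oat, Lect2, Glul and Rgn), where 11.9% of all genes passed and 9.78% passed downward. Slc1a2 was the fifth effector gene, at an adjusted p of 0.052, and the 4 pathway genes lay between -0.05 for Lgr5 and 0.86 for Tbx3 (adjusted p from 0.062 to 0.896). Groups did not overlap for 5 genes, beside 37% of all genes. At this time 309 genes in all passed up and 1403 down, or 477 and 848 with arrays centred. Under quantile normalization 0 of the 9 genes passed at 60 min, and 0 of all genes.

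At 90 min in adults 2 of the 9 genes passed, Oat and Slc1a2, both lower, where 7.45% of all genes passed and 6.28% passed downward. The split of all genes was 168 up and 901 down, or 253 and 704 with arrays centred, and quantile normalization left 0 of the 9 genes and 3 of all genes. Non-overlap with sham held for 5 of 9 genes, Glul, Oat, Lect2 and Rgn lower and Tbx3 higher, beside 39.1% of all genes. In the mean of the adult ischemia groups Oat (-0.63 ± 0.14, adjusted p = 0.0213), Glul (-0.47 ± 0.14, adjusted p = 0.0434), Slc1a2 (-0.41 ± 0.13, adjusted p = 0.046) and Lect2 (-0.42 ± 0.13, adjusted p = 0.0482) fell, 4 of 9 genes beside 10.7% of all genes that passed and 8.58% that passed downward. That mean was taken over genes of which 304 passed up and 1231 down, or 461 and 838 with arrays centred, and 0 of the 9 genes or of all genes passed in it after quantile normalization.

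Single arrays decided several of these calls. At 60 min the 4 adult calls became 0 without adult sham replicate 3 or without replicate 3 at 60 min, 1 (Oat) without replicate 2 at 60 min, 2 (Oat and Lect2) without adult sham replicate 1 or 2, and 5 without replicate 1 at 60 min, when Tbx3 passed too. At 90 min the 2 adult calls became 0 without adult sham replicate 3 or without replicate 1 or 2 at 90 min, 1 (Slc1a2) without replicate 3 at 90 min, and 3 without adult sham replicate 2, when Rnf43 passed too. The 4 calls of the adult mean became 0 without adult sham replicate 1 or 3, 1 (Oat) without replicate 1 or 2 at 30 min, replicate 2 or 3 at 60 min or replicate 2 at 90 min, 2 without replicate 1 or 3 at 90 min, and 6 without replicate 3 at 30 min. Dropping adult sham replicate 1 moved the adult mean change of Slc1a2 to -0.63 and dropping replicate 3 moved it to -0.22, and that of Lect2 became -0.27 when adult sham replicate 2 was dropped. The 7 calls over both ages became 1 (Oat) without young sham replicate 3, 2 (Oat and Tbx3) without adult sham replicate 3, 3 (Oat, Tbx3 and Rnf43) without young sham replicate 2, and 5 to 7 without any other array. Of these 24 fits Oat passed in 24, Tbx3 in 23, Rnf43 in 22, Glul in 21, Slc1a2 in 20, Lect2 in 15 and Axin2 in 13. All 17 changes that passed kept their sign under each setting tried, but 0 of the 17 passed under every one, and the 5 effector genes remained below 0 in adults at 60 min without each array in turn.

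**Figure D2:**
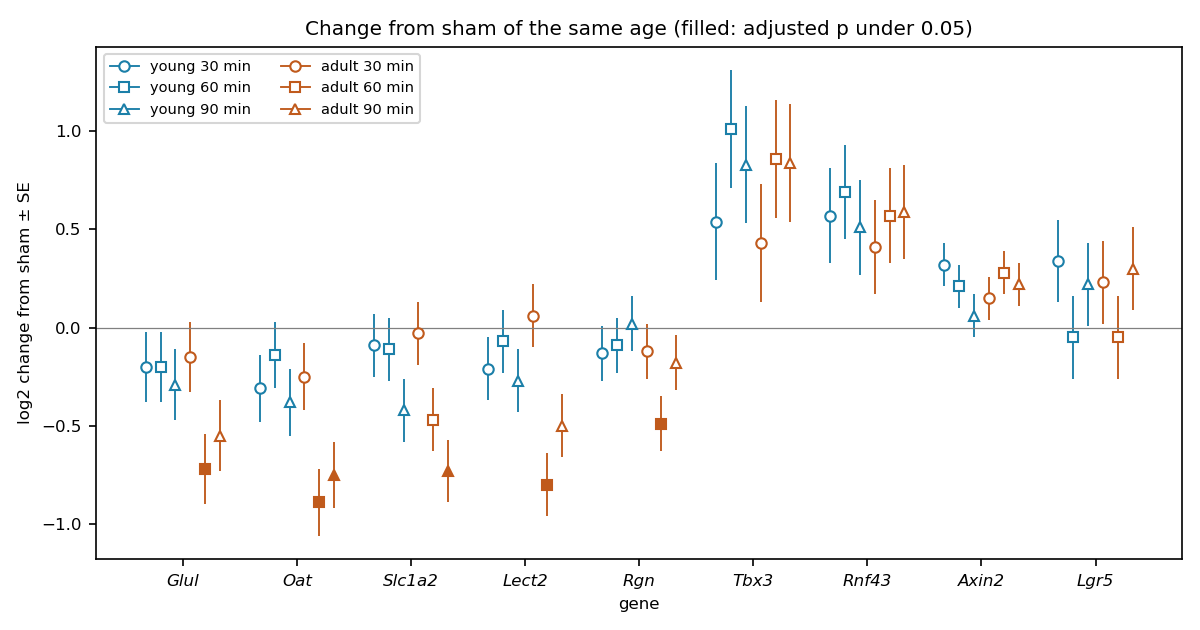
Change from sham of the same age on the log2 scale with its limma standard error for each gene, age and time, filled where the adjusted p was under 0.05. The 6 filled symbols are adult values of effector genes, from -0.89 for Oat to -0.49 for Rgn, and all symbols of Tbx3 and Rnf43 lie above 0.

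The question the study's 2 ages pose is whether the responses differ, and this was tested as the adult change minus the young change. It passed for 0 of the 9 genes at 30, 60 or 90 min in limma, and for 0 of all genes, of which 302, 978 and 1612 had an unadjusted p under 0.05 (2.1%, 6.81% and 11.2%). The largest differences of the 9 genes were at 60 min, in effector genes. Oat differed by -0.75 ± 0.24 with a 95% interval from -1.24 to -0.26, and Lect2 by -0.74 ± 0.23 with an interval from -1.21 to -0.26 (adjusted p = 0.704 for both). Glul differed by -0.52 ± 0.25, Rgn by -0.41 ± 0.19 and Slc1a2 by -0.36 ± 0.22 (adjusted p from 0.704 to 0.706). The intervals of Glul (-1.04 to -0.00) and Rgn (-0.81 to -0.00) reached the edge of 0, and that of Slc1a2 spanned it (-0.83 to 0.10). For the pathway genes the intervals at 60 min also spanned 0: Tbx3 differed by -0.14 with an interval from -1.04 to 0.75, Rnf43 by -0.12 from -0.84 to 0.60, Axin2 by 0.07 from -0.26 to 0.40, and Lgr5 by 0.00 from -0.62 to 0.62. The adult calls in effector genes are thus not shown to be particular to adult mice.

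Later against earlier ischemia was compared as 90 against 30 min. In limma 0 of the 9 genes passed in either age, and 0 of all genes, with 622 in young mice and 1086 in adult mice at an unadjusted p under 0.05. Slc1a2 had the largest adult change, -0.70 ± 0.16 (adjusted p = 0.22), with the 3 arrays at 90 min below the 3 at 30 min, as they also were in young mice (-0.33 ± 0.16, adjusted p = 0.982). It passed in adults in 2 of 15 other settings, with array weights (adjusted p = 0.00753) and with a replicate block from the title code (adjusted p = 0.0323), against 0.116 to 1 in the remaining settings. Adult arrays did not overlap for Lect2 (-0.56 ± 0.16, adjusted p = 0.469) and Oat (-0.49 ± 0.17, adjusted p = 0.554), both lower at 90 min, nor for Tbx3 (0.41 ± 0.30, adjusted p = 0.767), higher at 90 min. That made 4 of 9 genes in adults and 1 of 9 in young mice, where 12.1% and 12% of all genes did not overlap.

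Across the 24 arrays correlation was read among the 5 effector genes, among Axin2, Rnf43 and Tbx3, and between these sets. The sets follow the direction of change in the fit, so the signs of r over all arrays are partly set by that choice. These r values describe log2 ratios that share arrays and sham scaling, they carry no test, and the sets were formed after the values were seen. Glul and Oat had the highest r of the pairs, 0.94, which was 0.88 after the group means were removed. The 10 pairs among the 5 effector genes lay between 0.31 and 0.94 (within groups between -0.01 and 0.88). The 3 pairs of Axin2, Rnf43 and Tbx3 lay between 0.63 and 0.74 (within groups between 0.54 and 0.67). All 15 pairs across these sets were below 0, from -0.61 to -0.17, and within groups 11 of 15 were below 0, from -0.67 to 0.51. The highest of these within-group values, 0.51, was that of Slc1a2 with Tbx3. Lgr5 was placed in neither set, and its r with the other 8 genes lay between -0.08 and 0.38.

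**Figure D3:**
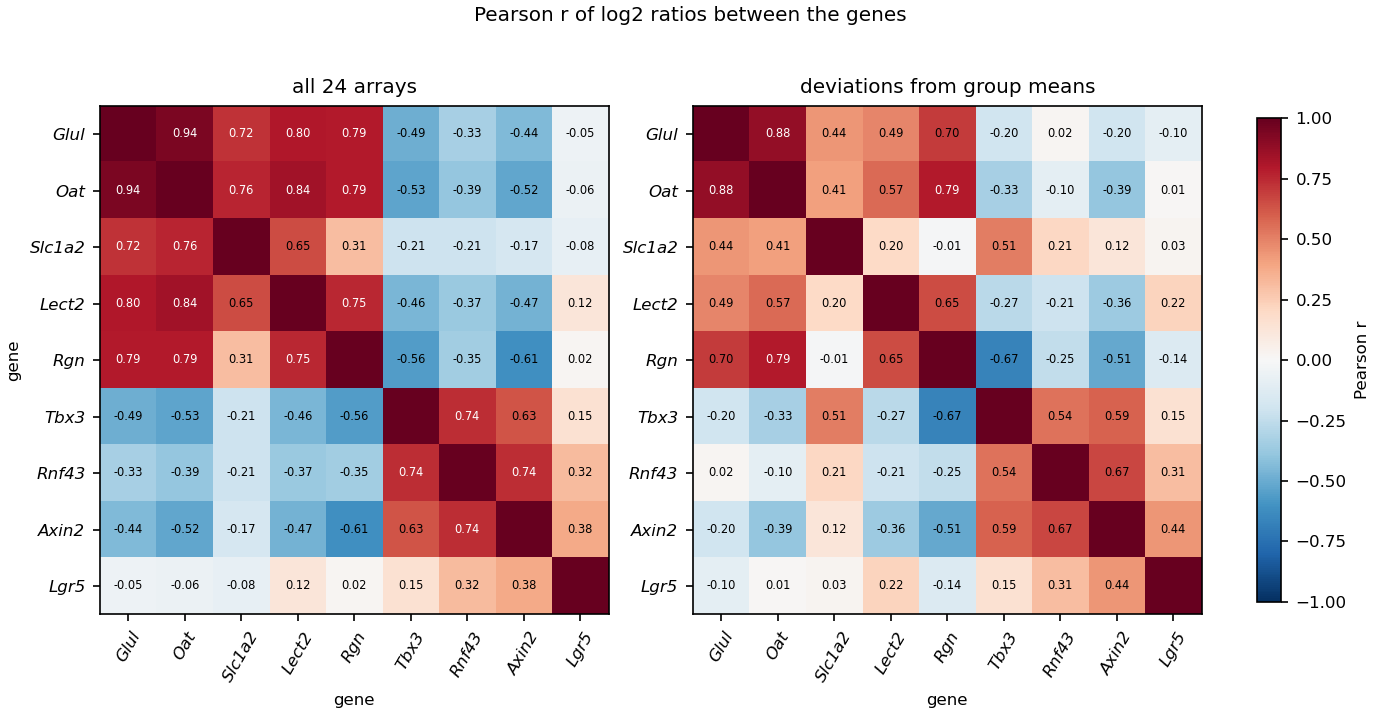
Pearson r of log2 ratios between each pair of the 9 genes, over all 24 arrays on the left and over deviations from the 8 group means on the right, coloured from -1 (blue) to 1 (red). On the left the 5 effector genes share positive r with one another, up to 0.94 for Glul and Oat, and negative r with Tbx3, Rnf43 and Axin2, whereas on the right Rgn and Slc1a2 are at -0.01 and 4 of the 15 pairs across the sets are above 0, up to 0.51 for Slc1a2 and Tbx3.

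The genes whose ratios ran most like each member over the 24 arrays were listed by Pearson r, without regard to function. Glul was nearest to Oat (0.94), Timm17a (0.92) and Mrpl3 (0.91), and Oat to Glul (0.94), Mrpl3 (0.93) and Akr1c13 (0.93). Lect2 had Gulo (0.91) and Alkbh7 (0.89) among its nearest genes. Rgn was nearest to Adh1 (0.96), Nipsnap1 (0.95) and Cpn1 (0.94), and Slc1a2 to Pon3, Habp2 and Snurf (0.87 each). Gulo is also in the list of further pericentral genes described below. The pathway genes had lower values: Tbx3 was nearest to Kif4 (0.80), Lhx1 (0.75) and Rnf43 (0.74), Rnf43 to Tcof1 (0.83), Camsap3 (0.81) and Rtn4rl1 (0.80), Axin2 to Ly6m (0.81), Aldh1a2 (0.78) and Slc24a3 (0.77), and Lgr5 to Zfpm1 (0.73), Fam20c (0.72) and Ptprf (0.67). Within groups Tbx3 and Rnf43 also varied most, with SDs of 0.42 and 0.33 on the log2 scale, larger than those of 98.4% and 96.1% of genes, and the effector genes had SDs from 0.17 for Rgn to 0.23 for Glul.

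Further pericentral hepatocyte genes were measured for 30 of 30 names, and some of them fell in adults at 60 and 90 min. At 60 min 14 of the 30 fell and 0 rose, where 9.78% of all genes passed downward, with a median change of -0.45 beside -0.05 for all genes. They included the glutathione transferase Gstm3 (-1.0 ± 0.22, adjusted p = 0.0285), the dioxin receptor Ahr (-0.97 ± 0.23, adjusted p = 0.0295), the sulfotransferase Sult5a1 (-0.77 ± 0.18, adjusted p = 0.0295) and the anion transporter Slco1b2 (-0.72 ± 0.17, adjusted p = 0.0295). At 90 min 7 fell, where 6.28% of all genes passed downward, led by the ammonia transporter Rhbg (-0.83 ± 0.23, adjusted p = 0.038), with a median of -0.34. In young mice 0 of 30 passed at any time, with medians of -0.19, -0.15 and -0.19 at 30, 60 and 90 min beside -0.02 for all genes. Over both ages 12 fell and 0 rose, beside 12.2% of all genes that passed downward, among them Por, the electron donor of the microsomal cytochromes P450 (-0.81 ± 0.14, adjusted p = 0.00203), which also fell in the young mean (-1.06 ± 0.19, adjusted p = 0.0156) but did not pass there without young sham replicate 1 or 2. The adult count at 60 min was 0 without adult sham replicate 1 or 3 or without replicate 2 or 3 at 60 min, that at 90 min was 0 without adult sham replicate 3 or without replicate 1 or 2 at 90 min, and the count over both ages was 7 without young sham replicate 3 or adult sham replicate 3. After quantile normalization these 3 counts were 0, 0 and 5.

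Periportal hepatocyte genes, 27 of 28 measured, served as the opposite zone. Their medians were also below that of all genes, at -0.39 in adults at 60 min and -0.26 at 90 min, with 1 call and 0 calls, the 1 being the cell adhesion gene Cdh1 (-0.99 ± 0.28, adjusted p = 0.036), beside 9.78% of all genes that passed downward at 60 min. That count was 0 without any adult sham array or without replicate 2 or 3 at 60 min, and 4 without replicate 1 at 60 min. Over both ages 4 of 27 fell, a share near the 12.2% of all genes that passed downward. They were the serine dehydratase Sds (-0.68 ± 0.17), the cationic amino acid transporter Slc7a2 (-0.66 ± 0.16) and the urea cycle enzymes Asl (-0.36 ± 0.11) and Arg1 (-0.35 ± 0.11), while G6pc, which releases glucose, rose (0.82 ± 0.22, adjusted p from 0.0139 to 0.0403 for the 5 genes). Of all genes 2.71% passed upward over both ages, and 1 rise among 27 genes is near that share. The 4 falls became 0 without adult sham replicate 3 and 1 without adult sham replicate 1 or young sham replicate 2 or 3, and 6 or 7 without young sham replicate 1, adult replicate 3 at 30 min or adult replicate 1 at 60 min. The rise was lost without adult sham replicate 1 or 3 or young sham replicate 2, and quantile normalization left no call in this list. The difference between the zones was not tested. Of 11 markers of hepatocytes in general 9 were measured, and 9 of 9 were below 0 in each comparison of ischemia with sham, with medians of -0.28 in adults at 60 min and -0.20 at 90 min. Over both ages 2 passed, Hnf4a (-0.42 ± 0.09, adjusted p = 0.00859) and Cyp2d10 (-0.25 ± 0.08, adjusted p = 0.0336), where 12.2% of all genes passed downward. That count was 1 to 5 without 1 array. Hnf4a also passed in adults at 90 min (-0.56 ± 0.15, adjusted p = 0.0375) and Cyp2d10 at 60 min (-0.40 ± 0.13, adjusted p = 0.0494), where 6.28% and 9.78% of all genes passed downward. The mean log2 ratio of the 9 markers ranged over adult arrays from -0.57 to -0.05 at 60 min and from -0.05 to 0.02 in sham. The part of these markers in the effector gene falls was not tested.

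The pathway itself was read from 4 lists. Of the Wnt feedback and target genes beyond the members 11 of 15 were measured. Over both ages only Cd44, an adhesion receptor also high in leukocytes, passed (-0.59 ± 0.18, adjusted p = 0.0318), where 12.2% of all genes passed downward. Lef1, a DNA-binding partner of beta-catenin, was at 0.17 ± 0.06 (adjusted p = 0.0694), Sp5 at 0.13 ± 0.09 (adjusted p = 0.308) and the inhibitor Nkd1 at 0.04 ± 0.07 (adjusted p = 0.698). Of 28 ligands, R-spondins and receptors 26 were measured. Over both ages 1 passed, the receptor Fzd1 (0.20 ± 0.07, adjusted p = 0.0482), where 2.71% of all genes passed upward. The ligands of central vein endothelium, Wnt2 (0.01 ± 0.07, adjusted p = 0.912) and Wnt9b (0.03 ± 0.05, adjusted p = 0.708), did not pass, nor did Rspo3 (-0.19 ± 0.09, adjusted p = 0.133). The co-receptor Ror1 rose in adults at 90 min (0.32 ± 0.09, adjusted p = 0.0414), 1 call of 26, where 1.17% of all genes passed upward. That call of Ror1 was lost in all 6 fits without 1 adult array of either group, the call of Fzd1 over both ages was lost in most fits without 1 array, and that of Cd44 without young or adult sham replicate 3.

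In the beta-catenin pathway core 23 of 27 genes were measured, and over both ages 3 fell and 3 rose, where 12.2% of all genes passed downward and 2.71% upward, so the share that fell was near that of all genes. The falls were the kinase Csnk1a1 (-0.42 ± 0.11, adjusted p = 0.0167), the phosphatase subunit Ppp2ca (-0.31 ± 0.10, adjusted p = 0.0364) and Ctnnb1, which encodes beta-catenin (-0.28 ± 0.09, adjusted p = 0.0336). The rises were the co-repressor Tle1 (0.32 ± 0.11, adjusted p = 0.0493), the ubiquitin ligase subunit Btrc (0.17 ± 0.05, adjusted p = 0.042) and Tcf7l2, a DNA-binding partner of beta-catenin (0.14 ± 0.05, adjusted p = 0.0485). In adults at 60 min 4 fell, Csnk1a1, Ppp2ca, Ctnnb1 and Fbxw11, from -0.72 to -0.51, where 9.78% of all genes passed downward. Of the secreted antagonists 11 of 12 were measured. Among them only Sost rose in adults at 60 min (0.31 ± 0.08, adjusted p = 0.0338) and over both ages (0.14 ± 0.05, adjusted p = 0.0496), where 2.15% and 2.71% of all genes passed upward. The medians of these 4 lists over both ages lay between -0.01 and 0.04, beside -0.03 for all genes. The adult calls of the core at 60 min became 0 without adult sham replicate 1 or 3 or without replicate 2 or 3 at 60 min, and over both ages the 3 falls became 0 without young sham replicate 3 or adult sham replicate 3. The 3 rises became 0 to 2 without each array in turn except adult replicate 3 at 30 min. The call of Sost at 60 min was lost without each adult sham array and without replicate 2 or 3 at 60 min, and that over both ages in most fits without 1 array. Quantile normalization left 0 calls in all 4 lists at these times and over both ages. In adults at 90 min 1 core gene rose and 2 fell, where 1.17% of all genes passed upward and 6.28% downward. That rise was lost in all 6 fits without 1 array of the groups compared. The 2 falls became 0 without adult sham replicate 3 or without any array at 90 min.

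**Figure D4:**
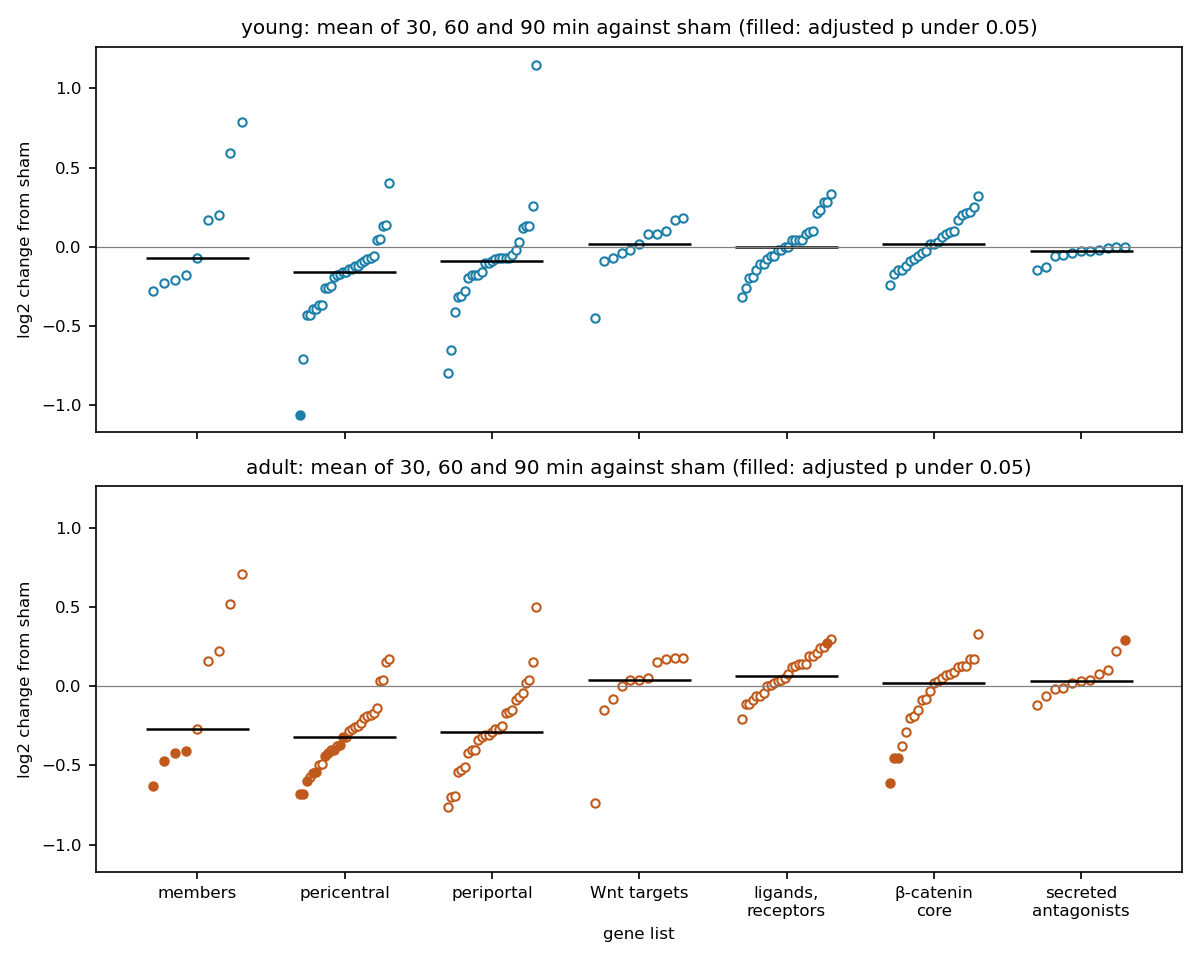
Change of each measured gene from sham on the log2 scale, for the mean of 30, 60 and 90 min, in young mice (top) and adult mice (bottom), by gene list, with bars at list medians and filled points where the adjusted p was under 0.05. In adults the members, the pericentral list and the periportal list have medians of -0.27, -0.32 and -0.29, while the 4 pathway lists lie near 0.

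Markers of other liver cells moved on the same arrays. Kupffer cell markers were measured for 11 of 11 genes. Of these 10 fell in adults at 90 min (1 after quantile normalization), where 6.28% of all genes passed downward. Their median change was -1.18, with a mean log2 ratio from -1.68 to -1.05 over the 3 arrays against -0.48 to 0.48 in adult sham. The count of 10 became 1 without adult sham replicate 3 or without replicate 1 at 90 min. Over both ages 4 of 14 endothelial markers fell (Lyve1, Thbd, Clec4g and Stab2, from -0.80 to -0.34). Of 10 stellate cell markers 5 fell, from -0.56 for Colec11 to -0.29. Of all genes 12.2% passed downward. The 2 counts were 0 and 1 after quantile normalization. Without young sham replicate 3 these counts were 2 and 3, and without adult sham replicate 3 the stellate count was 3. At 90 min 4 stellate markers fell in young mice and 2 in adults, where 0.111% and 6.28% of all genes passed downward. Their mean log2 ratio at 90 min ranged from -0.70 to -0.49 over young arrays and from -0.39 to -0.10 over adult arrays. The 4 young calls became 0 without any young sham array or without replicate 1 or 2 at 90 min. The difference between the ages at 90 min passed for 0 of all genes. T and NK cell markers gave 2 rises of 8 over both ages, Gzmb and Cd3e, where 2.71% of all genes passed upward. The 7 cholangiocyte and 5 neutrophil markers gave 0 calls, where 14.9% of all genes passed over both ages. The part of these markers in the changes of the pericentral genes was not tested.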

How the data were processed

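Liver RNA from 24 mice was measured on Affymetrix 3' arrays. RMA was used, per the submitters' processing notes, with no version given. The authors' deposited values are linear ratios in which the sham mean of each age is set to 1, as checked in the files for all 26180 probe sets. The genome build of the probe definitions is not given in the sources used here. Groups came from sample titles.

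Symbols came from the supplied table by RefSeq accession, for 15228 probe sets, and 10952 were unmatched. For 661 genes with several probe sets 1 was chosen by accession type and lowest number, which left 14351 genes. The model, fitted to log2 ratios with limma 3.58.1 under R 4.3.3, had 1 mean for each of the 8 groups, 16 residual and 4.53 prior degrees of freedom, two-sided, with Benjamini-Hochberg adjustment over all genes within each comparison and a threshold of 0.05. Errors are limma standard errors of the log2 change. P-values set a difference between groups against the spread of arrays within groups. With 1 array a mouse, that spread holds variation of mice and of arrays together. The fit was tried on simulated data with noise drawn separately for each gene and array. Those data held no shift shared by the genes of an array, so they do not cover the dependence on normalization or single arrays. All members are named, with up to 4 passing genes per list and comparison, or 2 genes of largest change where none passed, and the 3 genes most like each member, except 1 gene that is not reported here. Lef1, Sp5, Nkd1, Wnt2, Wnt9b, Rspo3, Btrc and Arg1 were named beyond this rule, after their values were seen. Members and lists were chosen with earlier results of these data known. Alternatives are given in the closing section. Figures were drawn with matplotlib 3.10.9.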

Additional observations from a re-analysis of the deposited data

How the results depend on the processing

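Counts below are numbers of the 9 genes that passed. Quantile normalization of the log2 ratios gave 0 in adults at 60 min, at 90 min and in the adult mean, and 0 over both ages, where Tbx3 was at 0.69 (adjusted p = 0.0635) and Oat at -0.31 (adjusted p = 0.105). Centring each array on its median gave 1 in the adult mean. Array weights gave 1 in young mice at 90 min, 4 in adults at 90 min and 1 for adult 90 against 30 min. Arrays of 1 age only gave 1 in young mice at 90 min (Slc1a2), 1 in the young mean (Tbx3), and 0 in adults at 90 min and in the adult mean. A replicate block from the leading digits of the code in the titles gave counts of 4 in adults at 90 min and 1 for adult 90 against 30 min, with Axin2 over both ages at an adjusted p of 0.0681. The labels do not explain that code, and pairing was not established: of 29 pairs of arrays that share it 12 correlated over 0.1 (median 0.05, from -0.38 to 0.42), beside 18 of 79 pairs that do not (median -0.02, from -0.44 to 0.47). With each array left out in turn, counts ran from 0 to 5 in adults at 60 min, 0 to 3 at 90 min, 0 to 6 in the adult mean and 1 to 7 over both ages, and stayed at 0 in the other 10 comparisons. The cause of these moves was not tested.

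Of 17 changes that passed, 17 kept their sign in every setting and 0 passed in every setting. Of 109 that did not pass, 12 passed in at least 1 setting and 76 kept their sign in every setting. Testing every probe set, averaging the probe sets of a gene, log2(ratio + 0.1) and a robust prior left every count within 1.5 times. The number of all genes that passed in adults at 60 min was 1712, and 0 after quantile normalization, 587 with the adult arrays alone and 2924 with array weights. At 90 min these were 1069, 3, 47 and 3026, and over both ages 2133, 120 and, with array weights, 3598.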
